A study of Mus musculus with 16 samples.

Results

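A set of 10 genes of ceramide and sphingolipid synthesis were followed through RNA-seq of primary mouse astrocytes with and without NLRX1, a mitochondrial member of the NOD-like receptor family. They were picked by symbol and comprise 5 ceramide synthases (Cers1, Cers2, Cers4, Cers5 and Cers6), the serine palmitoyltransferase subunits Sptlc1 and Sptlc2, the sphingomyelin synthases Sgms1 and Sgms2, and the glucosylceramide synthase Ugcg. All 10 symbols were found among the 16707 genes of the deposited log2 table, and all 10 passed the filter on low counts. Cers4 had drawn attention because its level was lower in Nlrx1-/- than in wild-type (WT) astrocytes, so its genotype difference is given below as a description, without a test.

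Sphingolipids are built in the endoplasmic reticulum, where serine palmitoyltransferase joins serine to a fatty acyl-CoA and the product is reduced to a long-chain base. Ceramide synthases attach a second fatty acid to that base, each enzyme preferring acyl chains of different length, and the resulting ceramide is turned into sphingomyelin by Sgms enzymes or into glucosylceramide by Ugcg. Ceramide is a membrane lipid that also takes part in stress and inflammatory signalling, and astrocytes both use sphingolipids in their own membranes and live beside myelin, which is rich in them.

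Astrocytes came from brains of pups 6 days old, were selected with beads against the astrocyte surface antigen ACSA-2 and were grown in serum-free medium for about 10 days. WT and Nlrx1-/- cultures, both of the C57BL6J background, received water as vehicle or lipopolysaccharide (LPS) at 500 ng/mL with interferon-γ (IFNγ) at 10 ng/mL for 24 h. Each of the 4 groups (WT vehicle, WT LPS + IFNγ, Nlrx1-/- vehicle and Nlrx1-/- LPS + IFNγ) contained 4 libraries, and the vehicle and stimulated wells of a replicate, called a litter here, came from the same set of mice. The Nlrx1-/- mice had been obtained from another laboratory and the WT mice were purchased, so genotype and colony cannot be told apart.

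Libraries held 27259420 to 43752903 read pairs assigned to transcripts. Nlrx1 itself was at 4.11 to 4.44 log2 CPM (a read count scaled to library size) in WT vehicle libraries and 4.08 to 4.19 in WT stimulated libraries, against 1.84 to 2.96 and 1.09 to 2.23 in the Nlrx1-/- libraries, so every library matched its label, with some reads left in the knockout. All 9 astrocyte markers examined were present, their summed level ranging from 4970 to 10200 CPM, whereas 7 of 8 microglial markers were not in the filtered table and the remaining one stayed at or below 1.84 CPM. Oligodendrocyte-lineage markers summed to 2320 to 3960 CPM although Mog, a marker of mature oligodendrocytes, was below 1 CPM in every library. In such bulk samples fewer cells of a type and less RNA per cell cannot be told apart.

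The promoters of Cers6, Cers4 and Sgms1 are shown because these genes were among those with the largest rises after stimulation. Sgms2, which rose more than Cers4 and Sgms1, is not shown. Sgms1 has several annotated starts, and the window printed is the one that holds the motif matches. The sequences are from RefSeq on build GRCm38.p6, run 5′ to 3′ on the gene's strand, and reach from 250 bases before an annotated transcription start to 50 after it. Capitals mark letters of a searched motif.
Cers6, chr2:68861191-68861490, plus strand: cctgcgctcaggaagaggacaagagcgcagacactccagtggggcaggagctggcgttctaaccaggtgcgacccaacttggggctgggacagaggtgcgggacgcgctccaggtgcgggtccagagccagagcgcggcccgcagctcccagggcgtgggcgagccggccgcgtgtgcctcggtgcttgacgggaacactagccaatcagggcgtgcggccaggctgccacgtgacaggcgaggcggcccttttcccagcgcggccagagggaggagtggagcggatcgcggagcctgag
Cers4, chr8:4493155-4493454, plus strand: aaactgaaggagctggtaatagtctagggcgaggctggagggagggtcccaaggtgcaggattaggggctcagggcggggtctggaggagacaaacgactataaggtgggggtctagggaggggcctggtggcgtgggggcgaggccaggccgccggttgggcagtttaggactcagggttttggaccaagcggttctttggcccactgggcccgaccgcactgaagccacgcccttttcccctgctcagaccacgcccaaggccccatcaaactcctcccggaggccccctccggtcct
Sgms1, chr19:32388463-32388762, minus strand: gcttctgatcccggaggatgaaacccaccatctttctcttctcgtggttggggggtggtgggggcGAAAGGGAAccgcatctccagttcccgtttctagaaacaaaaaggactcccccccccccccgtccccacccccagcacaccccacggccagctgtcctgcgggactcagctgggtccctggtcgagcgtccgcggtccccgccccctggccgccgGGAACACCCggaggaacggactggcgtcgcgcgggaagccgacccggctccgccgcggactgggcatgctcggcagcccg

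All 10 members matched the promoter table, with 19 windows between them, and each window was searched on both strands for motifs of factors that act downstream of IFNγ and LPS. The interferon-stimulated response element core, GAAANNGAA, occurred in 8.56% of 32851 promoters and in 1 member window, at Sgms1. A short NF-κB form, GGGNNTTCC, occurred in 5.82% of promoters and in the same Sgms1 window, on the opposite strand. Neither motif was matched in the Cers6 and Cers4 windows. The number of CG dinucleotides was 28 at Cers6, 28 in the Sgms1 window shown and 14 at Cers4. The other Sgms1 windows had 51, 4 and 13, and no motif match.

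Per unit of length, Cers2, the synthase known for very long acyl chains, was the most abundant member in every group, at a mean of 104 TPM (transcript abundance corrected for length and library size) in WT vehicle and 107 in Nlrx1-/- vehicle. Sptlc1 followed at 47.8 and 49.5 TPM. In WT vehicle, Sptlc1 overlapped over litters with Cers1 (40.8 TPM), and Cers1 with Cers5 (38.3 TPM). Sgms1 (18.6 TPM), Cers4 (18.4 TPM) and Ugcg (15.4 TPM) came next and each overlapped with its neighbour in the order. Sptlc2 (11.2 TPM), Cers6 (6.24 TPM) and Sgms2 (3.95 TPM) were lowest and did not overlap with one another. After LPS + IFNγ, Cers4 (35.8 TPM) and Sgms1 (33.9 TPM) came after Cers2 and Sptlc1 in WT, overlapping with each other, while Cers6 had reached 25.2 TPM and overlapped with Cers1 at 24.8 TPM. In stimulated Nlrx1-/- astrocytes Cers6 (29.0 TPM) overlapped with Sgms1 (27.8 TPM), which lay above Cers4 (23.0 TPM) in every litter. TPM were summed over transcripts that could be matched to a gene symbol. For Cers4 the matched transcripts lay -0.155 to -0.005 from the deposited gene values on the log2 scale, depending on the library. Its place in these orders is therefore approximate.

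LPS + IFNγ raised 6 of the 10 genes and lowered 1 in WT astrocytes, and raised 6 and lowered 2 in Nlrx1-/- astrocytes (edgeR quasi-likelihood test with litter as a block, Benjamini-Hochberg adjusted p below 0.05). Over the 16066 genes tested, 24.3% rose and 19.8% fell in WT, and 25.6% rose and 23.9% fell in Nlrx1-/-. The median log2 response of the members was 0.34 in WT and 0.46 in Nlrx1-/-, against -0.01 and -0.03 over all genes. The genes that rose in both genotypes were Cers2, Cers4, Cers6, Sptlc2, Sgms1 and Sgms2, and Cers1 fell in both. Of all genes 19.2% rose and 15.2% fell in both. Scaling by library totals in place of TMM (trimmed mean of M-values) shifted the median response of all genes to -0.18 in WT and -0.19 in Nlrx1-/-, with 2434 genes rising and 5384 falling in WT against 3902 and 3175 with TMM, and 2659 and 5886 against 4112 and 3839 in Nlrx1-/-. Log2 CPM levels and log2 responses below are on the TMM scale unless another setting is named. TPM are scaled within each library, without TMM.

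**Figure D1:**
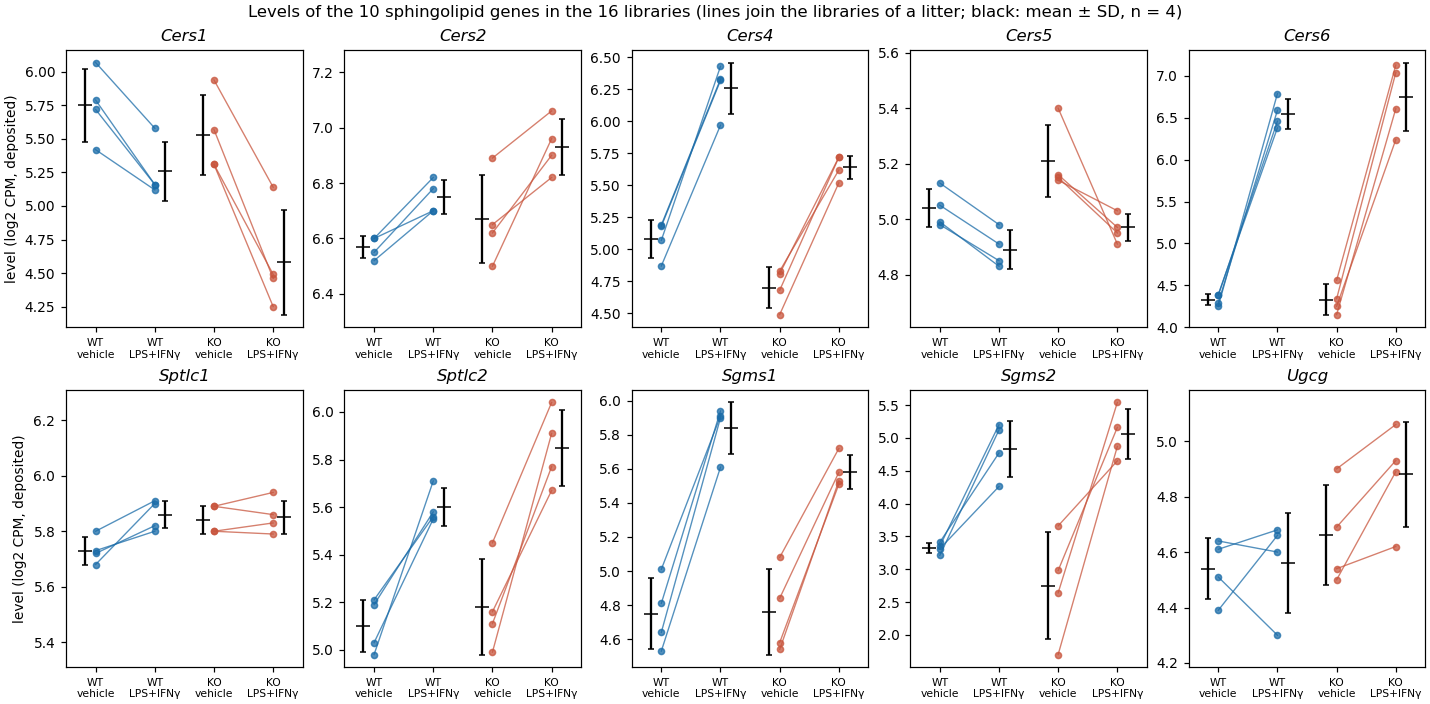
Level in log2 CPM of each of the 10 genes in every library (points), with lines joining the vehicle and LPS + IFNγ libraries of a litter and black marks giving the group mean ± SD (n = 4); the vertical range differs between panels. Cers6, Cers4, Sgms1, Sgms2 and Sptlc2 rose in every litter, Cers1 and Cers5 were lower after stimulation in every litter, and the Nlrx1-/- litters lay below the WT litters for Cers4 at both treatments.

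Serine palmitoyltransferase catalyses the committed step, and Sptlc1 and Sptlc2 encode its large subunits. Sptlc1, the subunit present in every form of the enzyme (chromosome 13, 53486729 to 53531449, GRCm39), was at 5.72, 5.80, 5.68 and 5.73 log2 CPM in WT vehicle litters 1 to 4 and at 5.82, 5.91, 5.90 and 5.80 after stimulation. In Nlrx1-/- litters it was at 5.80, 5.89, 5.80 and 5.89 in vehicle and 5.79, 5.94, 5.83 and 5.86 after stimulation. The 16 libraries thus lay between 5.68 and 5.94, with a log2 response of 0.12 ± 0.05 (SE, edgeR adjusted p = 0.079) in WT and 0.00 ± 0.05 (edgeR adjusted p = 0.995) in Nlrx1-/-. With library totals the WT value was -0.05, so its sign rests on the scaling, and the Nlrx1-/- value became a fall by 0.17 with an edgeR adjusted p of 0.0179.

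Sptlc2, which carries the catalytic lysine (chromosome 12, 87351832 to 87435267), was at 5.03, 4.98, 5.21 and 5.19 log2 CPM in WT vehicle and at 5.55, 5.71, 5.56 and 5.58 in WT LPS + IFNγ. In Nlrx1-/- it was at 5.11, 5.45, 5.16 and 4.99 in vehicle and 5.77, 6.04, 5.67 and 5.91 after stimulation. Stimulated libraries lay above vehicle libraries without overlap in both genotypes. The rise was 1.41-fold in WT (log2 response 0.49 ± 0.08, edgeR adjusted p = 0.000564) and 1.58-fold in Nlrx1-/- (0.66 ± 0.08, edgeR adjusted p = 6.18e-05).

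Among the ceramide synthases, Cers6 rose most. This enzyme, which prefers long-chain acyl-CoAs such as palmitoyl-CoA (chromosome 2, 68691455 to 68944627), was at 4.39, 4.29, 4.38 and 4.25 log2 CPM in WT vehicle litters and at 6.38, 6.59, 6.46 and 6.79 after LPS + IFNγ. In Nlrx1-/- litters it was at 4.15, 4.56, 4.25 and 4.34 in vehicle and at 6.61, 7.13, 6.24 and 7.04 after stimulation. All stimulated libraries stood well above all vehicle libraries, while the genotypes overlapped at either treatment. The change was 4.68-fold in WT (log2 response 2.23 ± 0.12, edgeR adjusted p = 1.46e-07) and 5.36-fold in Nlrx1-/- (2.42 ± 0.12, edgeR adjusted p = 7.25e-08).

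Cers4, a synthase of longer acyl chains (chromosome 8, 4542809 to 4581680), was at 4.87, 5.07, 5.19 and 5.18 log2 CPM in WT vehicle litters and at 5.97, 6.43, 6.33 and 6.32 after stimulation. In Nlrx1-/- it was at 4.83, 4.49, 4.81 and 4.68 in vehicle and at 5.62, 5.52, 5.72 and 5.72 after stimulation. The gene rose in all 8 litters, 2.27-fold in WT (log2 response 1.18 ± 0.07, edgeR adjusted p = 5.43e-07) and 1.96-fold in Nlrx1-/- (0.97 ± 0.07, edgeR adjusted p = 2.32e-06). The counts paired with a symbol here fell short of the deposited gene values for Cers4 by up to 0.155 on the log2 scale, and limma on the deposited log2 values, which do not have that shortfall, gave responses of 1.19 and 0.94.

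Cers1, the synthase of stearoyl ceramides that is prominent in neurons, moved the other way. It was at 5.42, 5.79, 5.72 and 6.07 log2 CPM in WT vehicle litters and at 5.12, 5.16, 5.16 and 5.58 after LPS + IFNγ. In Nlrx1-/- litters it was at 5.57, 5.31, 5.94 and 5.31 in vehicle and at 4.46, 4.25, 5.14 and 4.49 after stimulation. It fell in every litter, with a log2 response of -0.50 ± 0.08 (edgeR adjusted p = 0.000417) in WT and -0.96 ± 0.08 (edgeR adjusted p = 4.13e-06) in Nlrx1-/-, the latter a 1.94-fold fall. Without litter as a block the WT fall had an edgeR adjusted p of 0.0596. Cers1 (chromosome 8, 70768317 to 70784593) overlaps Gdf1, a growth factor gene on the same strand, and Upf1 on the other, and in these unstranded libraries reads of shared sequence cannot be assigned with certainty. In the GENCODE annotation every other member except Ugcg also overlaps at least 1 gene, among them Setdb1 on the opposite strand at Cers2 and noncoding genes on the same strand at Cers5, Cers6 and Sgms1.

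Cers2 (chromosome 3, 95221790 to 95234060) lay at 6.52 to 6.60 log2 CPM in WT vehicle and 6.70 to 6.82 after stimulation, and at 6.50 to 6.89 and 6.82 to 7.06 in Nlrx1-/-. The rise was small, 1.13-fold in WT (log2 response 0.18 ± 0.05, edgeR adjusted p = 0.0194) and 1.19-fold in Nlrx1-/- (0.26 ± 0.05, edgeR adjusted p = 0.00241). It rests on the scaling, since library totals gave 0.01 and 0.09 with edgeR adjusted p of 0.893 and 0.206, and the WT value also lost its call without the litter block (edgeR adjusted p = 0.078) and without WT litter 1, 2 or 3 (edgeR adjusted p up to 0.0778).

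Cers5 (chromosome 15, 99632477 to 99670783), which shares the preference for palmitoyl-CoA with Cers6, lay at 4.98 to 5.13 log2 CPM in WT vehicle and 4.83 to 4.98 after stimulation. In Nlrx1-/- it lay at 5.14 to 5.40 and 4.91 to 5.03, so that the stimulated and vehicle litters did not overlap. It fell in Nlrx1-/- (log2 response -0.26 ± 0.07, edgeR adjusted p = 0.00966), and the value in WT was -0.15 ± 0.07 (edgeR adjusted p = 0.105), negative in all 4 litters at -0.16 to -0.13. The WT value passed the threshold with library totals (-0.32, edgeR adjusted p = 0.00438) and without Nlrx1-/- litter 2 (edgeR adjusted p = 0.0482).

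Counted per length, the make-up of the ceramide synthase transcripts was compared between groups as a description, with no test. Summed TPM of Cers1 to Cers6 was 207.8 ± 7.19 (SD, n = 4) in vehicle and 217.0 ± 7.77 after stimulation for WT, and 201.5 ± 12.9 and 211.8 ± 3.45 for Nlrx1-/-. Cers6 took 3.01% ± 0.276 of the sum in WT vehicle and 11.6% ± 1.08 after stimulation, and 2.97% ± 0.263 and 13.7% ± 3.18 in Nlrx1-/-. Cers4 went from 8.83% ± 0.712 to 16.5% ± 1.80 in WT and from 6.61% ± 1.04 to 10.9% ± 1.06 in Nlrx1-/-. These Cers4 shares miss the transcripts not matched to a symbol, a shortfall that differed between libraries, and its part in the genotype difference was not tested. Cers1 went from 19.6% ± 2.74 to 11.4% ± 1.61 in WT and from 16.8% ± 3.51 to 7.42% ± 2.49 in Nlrx1-/-. Cers5 held 18.5% in WT vehicle and 13.7% after stimulation, and 20.6% and 14.5% in Nlrx1-/-. Cers2 stayed near the middle, at group means from 46.7% to 53.4%, and Cers3, a synthase of skin and testis, was at most 0.209% in any library. The shares of a library sum to the whole and therefore do not move independently.

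**Figure D2:**
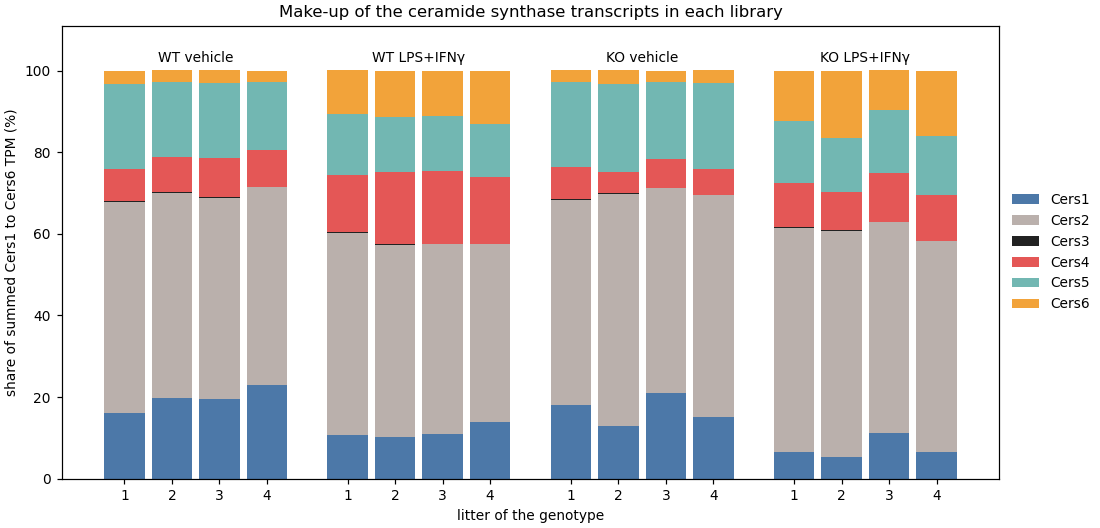
Share of each ceramide synthase in the summed Cers1 to Cers6 TPM (percent, stacked bars from 0), with 1 bar per library and the 4 litters of each group side by side. The Cers6 share is 2.69% to 3.29% in vehicle libraries of WT and 10.6% to 13.1% in stimulated ones, and the Cers4 share of stimulated libraries is 14% to 17.8% in WT and 9.46% to 12% in Nlrx1-/-. The Cers4 shares count only transcripts matched to a symbol.

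Both sphingomyelin synthases, which transfer phosphocholine onto ceramide, rose. Sgms1, the Golgi enzyme (chromosome 19, 32097497 to 32367505), was at 4.53, 4.64, 5.01 and 4.81 log2 CPM in WT vehicle litters and at 5.61, 5.90, 5.91 and 5.94 after stimulation. In Nlrx1-/- it was at 4.58, 4.84, 5.08 and 4.54 in vehicle and at 5.51, 5.58, 5.72 and 5.53 after stimulation. All stimulated libraries lay above all vehicle libraries, by 2.13-fold in WT (log2 response 1.09 ± 0.07, edgeR adjusted p = 1.15e-06) and 1.75-fold in Nlrx1-/- (0.81 ± 0.07, edgeR adjusted p = 9.01e-06).

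Sgms2, the plasma membrane enzyme (chromosome 3, 131112634 to 131197172), had the lowest mean TPM of the 10 genes in every group, overlapping with its neighbour in the order after stimulation, and the largest SD, 0.82 log2 CPM in Nlrx1-/- vehicle. It was at 3.21, 3.35, 3.41 and 3.31 log2 CPM in WT vehicle litters and at 5.12, 5.20, 4.77 and 4.26 after stimulation. In Nlrx1-/- it was at 2.98, 2.64, 3.66 and 1.7 in vehicle and at 5.16, 5.54, 4.65 and 4.87 after stimulation. Litters 3 and 4 of Nlrx1-/- lay farthest apart in vehicle, and their log2 responses were the smallest and the largest of that genotype, 0.99 and 3.17. The edgeR log2 response was 1.52 ± 0.29 (2.86-fold, adjusted p = 0.00177) in WT and 2.29 ± 0.31 (4.88-fold, adjusted p = 0.000134) in Nlrx1-/-. Reads of Sgms2 ranged from 129 to 1315 per library.

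Ugcg, which makes the first glycosphingolipid (chromosome 4, 59189035 to 59222845), was at 4.39, 4.61, 4.64 and 4.51 log2 CPM in WT vehicle litters and at 4.66, 4.68, 4.60 and 4.30 after stimulation. In Nlrx1-/- it was at 4.50, 4.90, 4.54 and 4.69 in vehicle and at 4.89, 5.06, 4.62 and 4.93 after stimulation. In WT it was higher after stimulation in 2 of 4 litters and in Nlrx1-/- in 4 of 4. Neither response passed the test, at 0.02 ± 0.08 (edgeR adjusted p = 0.876) in WT and 0.21 ± 0.08 (edgeR adjusted p = 0.0591) in Nlrx1-/-. The sign of the WT value changed with the scaling, to -0.15 with library totals.

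Whether loss of NLRX1 altered these responses was asked by the difference between them. Over the 9 members other than Cers4, 0 passed at an adjusted p below 0.05 (edgeR, 0.0% of all genes), and 2 of 9 had an unadjusted p below 0.05 against 15.5% of all genes. These were Cers1, whose response was lower in Nlrx1-/- by -0.46 ± 0.11 on the log2 scale (edgeR adjusted p = 0.212), and Sgms1, with -0.28 ± 0.10 (edgeR adjusted p = 0.253). The Cers1 litter responses were -0.30, -0.63, -0.56 and -0.48 in WT and -1.12, -1.06, -0.80 and -0.82 in Nlrx1-/-, so that they did not overlap, which was also so of Sptlc1 and Cers4 and of 5.25% of all 16707 genes in that direction (3.06% in the other). DESeq2 called the Cers1 difference (-0.44, adjusted p = 0.0296), as did edgeR without Nlrx1-/- litter 3 (-0.52, adjusted p = 0.0479). The differences for Cers6 (0.20 ± 0.16, edgeR adjusted p = 0.586) and Sgms2 (0.77 ± 0.41, edgeR adjusted p = 0.401) did not pass.

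**Figure D3:**
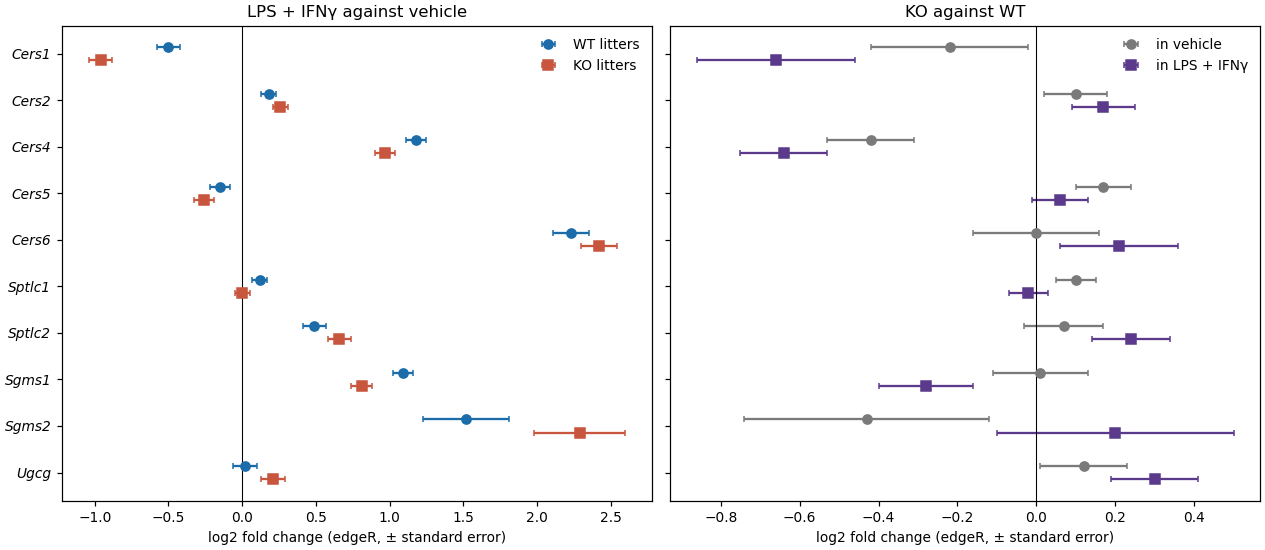
Log2 fold changes of the 10 genes fitted by edgeR, with bars giving ± 1 standard error: LPS + IFNγ against vehicle in WT (circles) and Nlrx1-/- litters (squares) on the left, and Nlrx1-/- (KO) against WT in vehicle (circles) and LPS + IFNγ (squares) on the right. The responses reach 2.23 and 2.42 for Cers6, whereas the genotype differences lie between -0.66 and 0.30; the Cers4 genotype values chose this gene and are shown without a test.

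Cers4 was the gene that chose this set, and its levels are set out again by genotype only as a description. In vehicle, WT litters lay at 4.87 to 5.19 log2 CPM and Nlrx1-/- litters at 4.49 to 4.83, and after LPS + IFNγ at 5.97 to 6.43 and 5.52 to 5.72. The fitted log2 difference was -0.42 ± 0.11 in vehicle and -0.64 ± 0.11 after stimulation, and the litter responses were 1.10, 1.36, 1.15 and 1.14 in WT against 0.79, 1.03, 0.90 and 1.04 in Nlrx1-/-. The fitted values rest on the counts with the shortfall given above. On the deposited log2 values limma gave -0.37 in vehicle, and after stimulation the other settings gave -0.64 to -0.62. Groups that did not overlap in this direction were seen for 3.43% of all genes in vehicle and 6.23% after stimulation. Summed ependymal markers (7 of 8 in the table, none below 1 CPM in every library) were at 182 to 254 CPM in WT vehicle against 105 to 199 in Nlrx1-/- vehicle and at 127 to 182 against 73.4 to 122 after stimulation. Foxj1 made up most of that sum, at a mean of 7.6 log2 CPM in WT vehicle against at most 2.74 for the others. Summed astrocyte markers were at 6430 to 10200 against 4970 to 7910 in vehicle and at 5800 to 8700 against 5060 to 6730 after stimulation. Their edgeR log2 differences after stimulation ranged from -2.0 (S100b) to -0.05 (Slc1a3). Medians after stimulation were -1.43 (ependymal), -0.91 (astrocyte), -0.74 (oligodendrocyte lineage), 0.17 (neuron), -0.17 (endothelial), 0.35 (fibroblast) and 0.91 (1 microglial gene). The part of these shifts in the Cers4 difference was not tested.

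None of the other 9 members passed the test between genotypes in vehicle (edgeR adjusted p below 0.05, 0.0% of all genes), and 1 of 9 had an unadjusted p below 0.05 against 19.5% of all genes. That gene was Cers5, which was 0.17 ± 0.07 higher in Nlrx1-/- on the log2 scale (edgeR adjusted p = 0.212). The Cers5 litters, at 5.14 to 5.40 against 4.98 to 5.13 log2 CPM, did not overlap, and neither did those of Sptlc1, whose highest WT and lowest Nlrx1-/- litters both round to 5.80 log2 CPM (0.10 ± 0.05, edgeR adjusted p = 0.302). Such separation with Nlrx1-/- above WT was seen for 6.02% of all genes.

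After LPS + IFNγ, 0 of the 9 passed (edgeR, 4.72% of all genes), and 5 of 9 had an unadjusted p below 0.05 against 28.2% of all genes. The 5 were Cers1 (-0.66 ± 0.20, edgeR adjusted p = 0.0586), Ugcg (0.30 ± 0.11, edgeR adjusted p = 0.10), Sptlc2 (0.24 ± 0.10, edgeR adjusted p = 0.135), Sgms1 (-0.28 ± 0.12, edgeR adjusted p = 0.152) and Cers2 (0.17 ± 0.08, edgeR adjusted p = 0.157). Litters of the genotypes overlapped for all 9, as against 6.23% of all genes with Nlrx1-/- below WT and 7.09% above without overlap. The Cers1 value depended on 1 litter and on the model. Nlrx1-/- litter 3 was at 5.14 log2 CPM against 4.25 to 4.49 in the other Nlrx1-/- litters, and without it the difference was -0.89 (edgeR adjusted p = 0.00392) and that of Ugcg 0.38 (edgeR adjusted p = 0.0313). DESeq2 (adjusted p = 0.0156), limma on the deposited log2 values (adjusted p = 0.0421) and limma-voom with litter as a random block (adjusted p = 0.0393) also called Cers1.

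The members were set beside 70 other genes of sphingolipid metabolism, of which 63 could be tested. In WT 17 rose and 12 fell, and in Nlrx1-/- 17 rose and 23 fell (edgeR), against 24.3% and 19.8% of all genes in WT and 25.6% and 23.9% in Nlrx1-/-. In both genotypes 15 rose and 11 fell, against 19.2% and 15.2% of all genes, and the counts of the role groups that follow are to be read against the same shares. Their median log2 response was -0.03 in WT and -0.06 in Nlrx1-/-, close to that of all genes.

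The fatty acid elongases, which make the acyl-CoAs that ceramide synthases use, had 4 of 7 genes raised in both genotypes and 1 lowered in both. Elovl3 had the largest response (log2 3.77 ± 0.73 in WT and 2.64 ± 0.66 in Nlrx1-/-) at a very low level, with a mean of -3.10 log2 CPM in WT vehicle and -0.22 after stimulation. Elovl1, an elongase of saturated very long chains, rose by 0.79 ± 0.08 and 0.82 ± 0.07 from a mean of 4.29 and 4.46 log2 CPM.

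Of the de novo enzymes beside the members, 5 of 7 could be tested and Kdsr, the reductase that follows serine palmitoyltransferase, fell in both genotypes (-0.32 ± 0.08 and -0.47 ± 0.08). Among the ORMDL proteins, which restrain serine palmitoyltransferase, and lipid transfer proteins, 1 of 7 rose in both, Ormdl2 (0.83 ± 0.10 and 0.44 ± 0.10). In Nlrx1-/- 3 of the 7 fell, and these are named after their values were seen. They were Ormdl1 (-0.33 ± 0.08, edgeR adjusted p = 0.00786), Ormdl3 (-0.22 ± 0.06, edgeR adjusted p = 0.00723) and the glycolipid transfer protein Gltp (-0.18 ± 0.05, edgeR adjusted p = 0.00812), with WT values of 0.02, -0.12 and -0.03 that did not pass. In sphingomyelin turnover 2 of 7 rose and 2 fell in both genotypes. Smpdl3b, a membrane phosphodiesterase related to the sphingomyelinases, rose (1.29 ± 0.16 and 0.77 ± 0.16), and Smpd3, a neutral sphingomyelinase, fell (-0.58 ± 0.11 and -0.74 ± 0.11). Among ceramidases and ceramide kinase, 3 of 5 rose in both, led by the neutral ceramidase Asah2 (0.48 ± 0.13 and 0.91 ± 0.14) and the alkaline ceramidase Acer3 (0.49 ± 0.09 and 0.52 ± 0.09). The Asah2 rise in WT did not pass without WT litter 3 or 4 (edgeR adjusted p up to 0.064) or with library totals (edgeR adjusted p = 0.0707).

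The galactolipid genes Ugt8a and Gal3st1 fell in both genotypes. Ugt8a, which makes the myelin lipid galactosylceramide, fell by 0.87 ± 0.14 in WT and by 1.47 ± 0.15 in Nlrx1-/-, and Gal3st1, which sulfates it, fell by 0.94 ± 0.26 and by 1.46 ± 0.28. Without litter as a block the WT falls had edgeR adjusted p of 0.239 (Ugt8a) and 0.24 (Gal3st1) and the Gal3st1 fall in Nlrx1-/- 0.0959, and the Gal3st1 fall in WT had 0.0706 without WT litter 2. Of 9 glycosphingolipid synthesis genes tested, these were the 2 that fell in both genotypes, and 2 others rose in both. Oligodendrocyte-lineage markers moved the same way, their sum being 3140 to 3720 CPM in WT vehicle and 2640 to 3240 after stimulation, and 3240 to 3960 and 2320 to 3050 in Nlrx1-/-, and their part in these falls was not tested. On the breakdown side 3 of 12 fell in both genotypes and 1 rose in both, among them the ganglioside activator Gm2a (-0.78 ± 0.11 and -1.28 ± 0.11) and the galactosylceramidase Galc (-0.74 ± 0.08 and -0.81 ± 0.08). By genotype, 3 of the 12 fell and 1 rose in WT, and 7 fell and 1 rose in Nlrx1-/-. Of all genes 19.8% fell in WT and 23.9% in Nlrx1-/-, and these counts are given after they were seen.

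In sphingosine 1-phosphate metabolism, the lipid phosphatases Plpp3 (-0.52 ± 0.06 and -0.85 ± 0.06) and Plpp1 (0.46 ± 0.10 and 0.52 ± 0.10) moved in opposite directions. Of the sphingosine 1-phosphate receptors, 3 of 5 could be tested, and 0 passed in WT and 1 fell in Nlrx1-/-.

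Between genotypes, 0 of the 63 genes passed in vehicle and 3 did after LPS + IFNγ (edgeR), against 0.0% and 4.72% of all genes. The phosphatase Sgpp1 was 0.32 ± 0.09 higher in Nlrx1-/- (adjusted p = 0.0471), and Plpp3 (-0.60 ± 0.16, adjusted p = 0.0499) and the sulfatide-degrading arylsulfatase Arsa (-0.53 ± 0.12, adjusted p = 0.0403) were lower. All 3 calls were kept only without WT litter 1 or Nlrx1-/- litter 3 when 1 litter was left out, and the edgeR adjusted p otherwise rose to as much as 0.151, 0.159 and 0.151. Of 9 other settings, Arsa was called in 9, Sgpp1 in 7 and Plpp3 in 6. Sgpp1 and Plpp3 lost their calls without the low-count filter and with limma-voom, and Plpp3 also with library totals. None of the 63 passed the edgeR test for a difference in response, which called 0.0% of all genes (lowest adjusted p 0.212). DESeq2 called 310 of all genes for this difference, and its values for the 63 are not given here.

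**Figure D4:**
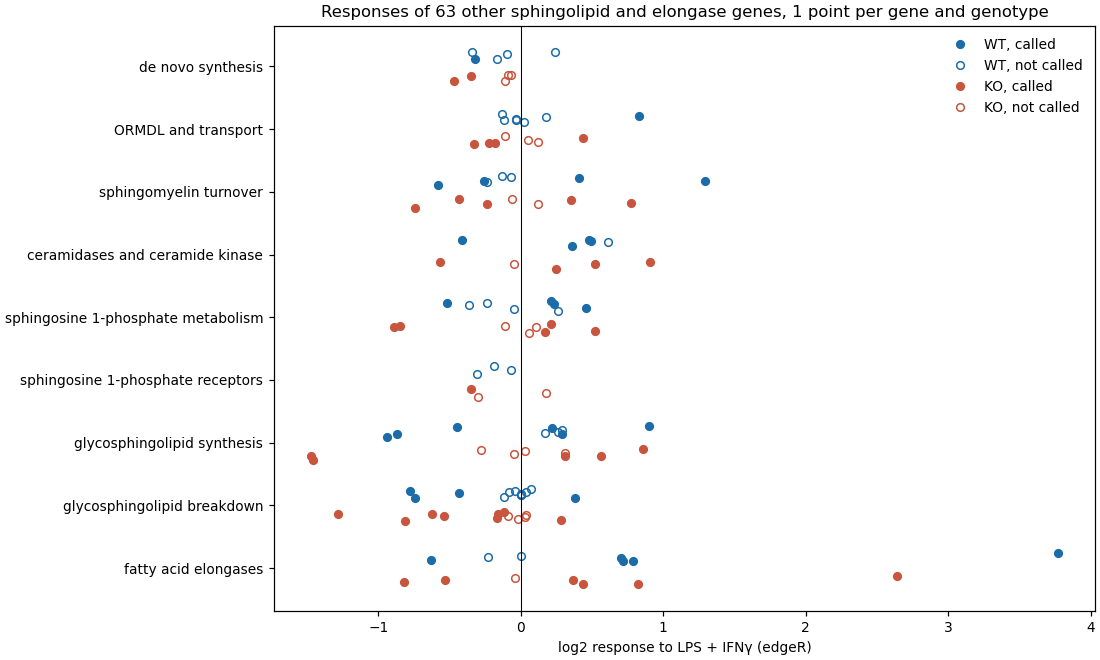
Log2 responses to LPS + IFNγ (edgeR) of the 63 sphingolipid pathway genes tested, with 1 point per gene and genotype, grouped by role, and filled where the adjusted p was below 0.05. Elovl3 lies farthest to the right at 3.77 in WT and 2.64 in Nlrx1-/-, and in glycosphingolipid synthesis Ugt8a and Gal3st1 lie farthest to the left.

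The genes whose level across the 16 libraries was most like that of Cers4 were Pdzph1 (Pearson r = 0.971), Laptm4a (0.970), Twsg1 (0.968), Slc39a1 (0.967) and Jam3 (0.965), out of 13500 genes compared, whose median r was 0.003. The libraries share litters and treatment, so these values describe a common pattern over the 4 groups. Pdzph1, for example, had vehicle means of 1.88 log2 CPM (WT) and 1.5 log2 CPM (Nlrx1-/-), and stimulated means of 5.28 and 4.28 log2 CPM. Among the members, Sgms1 (0.918), Cers6 (0.835) and Sgms2 (0.803) were most like Cers4, and Cers5 (-0.868) least.

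Of the members, 4 had more than 1 transcript with at least 5% of the gene's TPM and could be examined for a shift in transcript use. The share of the leading transcript changed on average by 1.63 percentage points for Cers6, -10.5 for Sgms1, -17.3 for Sgms2 and -0.746 for Ugcg over the 8 litters. None passed an exact permutation test over litters (two-sided, adjusted p = 0.852, 0.266, 0.266 and 0.852, with 0.00781 the smallest p it can give). Litters differed widely, the Sgms2 change ranging from -67.7 to 32.8 percentage points, so a moderate shift was not detectable with these samples.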

How the data were processed

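Poly-A RNA of 16 astrocyte cultures was sequenced in pairs of reads. The authors quantified reads with Salmon 1.7.0 against transcripts of GRCm39 (submitters' processing notes), summed them to genes, filtered, scaled by TMM and used limma 3.58.1. For its lists of differentially expressed genes the study used DESeq2. The deposited files give estimated counts, TPM and effective lengths per transcript for each library, and a deposited table gives log2 CPM per gene, which was used for levels. The CPM table was not used.

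RefSeq accessions were paired with symbols (106440 of 129698 transcripts, GRCm38.p6 table, names only), and the deposited estimated counts were summed per gene and rounded. Tests were made with edgeR 4.0.16 (R 4.3.3), with length offsets, TMM and filterByExpr (minimum count 10), over 16066 genes, at a Benjamini-Hochberg adjusted p below 0.05. Responses and their difference were fitted with litter as a block within genotype, and genotype differences without litter. The pairing comes from the series description, and vehicle and stimulated libraries of a litter deviated together (r = 0.073 to 0.355). In simulated data with 200 genes changed by 1 on the log2 scale, 74.5% (response in WT), 71% (response in Nlrx1-/-), 61.5% (difference), 73% (vehicle) and 72% (LPS + IFNγ) were recovered over 16066 genes. The simulated libraries were drawn independently, with the spread left after blocking on litter and without length offsets. They hold no differences between litters, so the vehicle and LPS + IFNγ shares do not measure recovery between the real genotypes.

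The deposited TPM were used for order, make-up and transcript share. Gene positions are from GENCODE M39 on GRCm39, and promoters from RefSeq on GRCm38.p6. The 10 members, the gene lists and the tests were chosen with earlier results of these data known. Beside the members, the text names at most 2 genes per pathway group (the largest mean response among those called the same way in both genotypes), pathway genes called between genotypes, and the 5 genes most like Cers4. Alternatives were other size factors, no filter, no offsets, DESeq2 1.42.0, limma, the litter block, and each litter left out. Scaling by library totals was chosen after seeing the data.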

Additional observations from a re-analysis of the deposited data

Results flagged for a closer look

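Of 60 sets of 4 values checked for a library far from the others (Dixon's test), 4 stood out, and chance flags about 1 in 20. In WT LPS + IFNγ, Cers1 in litter 4 was at 5.58 log2 CPM against 5.12 to 5.16 in the other litters. Sptlc2 in litter 2 of that group was at 5.71 against 5.55 to 5.58, and Sgms1 in litter 1 was at 5.61 against 5.90 to 5.94. In Nlrx1-/- vehicle, Cers5 in litter 2 was at 5.40 against 5.14 to 5.16.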

How the results depend on the processing

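Of 424 values under other settings 403 kept direction and side of the threshold, as did 378 of 400 with 1 litter left out. Counts of called members were 6 to 8 (WT response) and 8 to 9 (Nlrx1-/- response) with 1 litter left out. The count for the difference between responses, 0 in the report, was 1 with DESeq2 and 0 to 1 with 1 litter left out. For the genotypes after LPS + IFNγ it was 1 (Cers1) with DESeq2, with limma on the deposited log2 values (-0.67), with the replicate number as a block over both genotypes (-0.68, adjusted p = 0.0318) and with litter as a random block in limma-voom (-0.68, adjusted p = 0.0393), and 0 to 2 with 1 litter left out. Across genotypes the litters share only a number (r of same-numbered libraries -0.034 to 0.18 in vehicle and -0.089 to 0.149 after stimulation), so this block pairs nothing known. Within genotypes the paired and unpaired fits differed, among the members, in the calls of Cers1 and Cers2 in WT given above. Values near 0 changed sign. The Ugcg response in WT was -0.00069 with RLE size factors, -0.0013 with DESeq2, -0.02 without length offsets and -0.15 with library totals, and -0.06 to 0.09 with 1 litter left out. The Sptlc1 response was -0.05 in WT with library totals and 0.01 in Nlrx1-/- with limma on deposited values (-0.02 to 0.02 with 1 litter left out). In vehicle the Sgms1 genotype value was -0.0032 with library totals and -0.02 with either limma-voom fit (-0.10 to 0.11 with 1 litter left out). With 1 litter left out the vehicle values of Cers6 were -0.09 to 0.05 and of Sptlc2 -0.03 to 0.14, and that of Sptlc1 after LPS + IFNγ -0.05 to 0.01. The causes were not tested. The Ugcg response in Nlrx1-/- passed with limma-voom (0.20, adjusted p = 0.0486) and without WT litter 1 (0.21, adjusted p = 0.0474).

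Over all genes, 759 differed between genotypes after LPS + IFNγ in edgeR, 2502 in DESeq2, 384 in limma-voom, 1471 in limma on deposited values, 2158 with the replicate block, 1235 with the random block and 1 to 3289 with 1 litter left out, the highest without Nlrx1-/- litter 3. In vehicle there were 0, 781 in DESeq2, 0 or 1 under the other settings and 0 to 1285 with 1 litter left out, and for the difference between responses 0, 310 in DESeq2, 0 or 1 under the other settings and 0 to 359 with 1 litter left out, again highest without that litter. The fewest reads of a member in any library were 129, for Sgms2.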
